A study of Mus musculus with 20 samples.

Results

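The immediate early genes followed here are 10 of the 23260 genes in the deposited count table: Fos, Fosb, Jun, Junb, Jund, Egr1, Atf3, Ier2, Dusp1 and Zfp36. They were taken by symbol, all 10 were found, and their UMI counts (unique molecular identifiers, 1 per captured transcript) were summed within each library and each cell type named by the authors. The cells came from explants of CD1 wildtype mouse retina that were electroporated with a GFP control construct, with a MEIS1 construct, with a MEIS2 construct, or with both MEIS constructs at 50:50, here called the combination. MEIS1 and MEIS2 are related homeodomain transcription factors. Each of the 2 ages on the labels, postnatal day 2 (P2) and postnatal day 5 (P5), is represented by 4 controls and by pairs of libraries (2 each) for MEIS1, MEIS2 and the combination, which makes 8 groups and 20 libraries. All groups share the strain, the explant culture, electroporation, selection of GFP-positive cells, papain dissociation and the 10x 3' v3.1 assay. The design text of the series speaks of 2 or 5 days of treatment, whereas the labels of the samples use P2 and P5 as ages, so age and days in culture cannot be told apart. That text also names pCAGIG plasmids carrying NR2F1 and NR2F2 where the labels name MEIS; the labels were followed. Nothing in the labels says whether libraries of a group came from separate animals or cultures, so the p-values measure the spread between libraries.

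Immediate early genes are transcribed within minutes of a stimulus without new protein synthesis, because their promoters already hold factors such as SRF with its ELK partners and CREB, which kinases of the MAPK family activate. Fos and Jun proteins pair into AP-1, a dimer that binds DNA; Egr1 and Atf3 encode other DNA-binding factors; Ier2 encodes a nuclear protein of the early response; Dusp1 encodes a phosphatase that switches MAPK off; and Zfp36 encodes tristetraprolin, which speeds the decay of AU-rich mRNAs, including those of early genes. In the retina these genes are known to respond to light, injury and growth factors, and AP-1 and Egr1 mark the early response of Müller glia to damage. In many tissues they also respond while cells are being dissociated.

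The promoters of 5 members are printed because the same short motif occurs in all 5. RefSeq (GRCm38.p6) gave the 250 bases before the transcription start for 8 of the 10 genes. The letters TGACG, the core of the cyclic AMP response element that CREB and ATF proteins bind, were found on either strand in 5 of these 8 and in 17.8% of the 32851 promoters searched. Matches are in capitals, read 5' to 3' on the gene's strand; CGTCA is the same motif on the other strand. The sequences are Fos at chr12:85473640-85473889 (plus strand), Fosb at chr7:19310046-19310295 (minus), Junb at chr8:84978749-84978998 (minus), Atf3 at chr1:191183334-191183583 (minus) and Dusp1 at chr17:26508473-26508722 (minus).
Fos: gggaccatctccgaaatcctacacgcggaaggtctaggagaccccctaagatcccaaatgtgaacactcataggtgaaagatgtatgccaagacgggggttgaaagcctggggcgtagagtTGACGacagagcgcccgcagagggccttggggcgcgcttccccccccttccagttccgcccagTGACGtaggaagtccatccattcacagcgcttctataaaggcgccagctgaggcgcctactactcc
Fosb: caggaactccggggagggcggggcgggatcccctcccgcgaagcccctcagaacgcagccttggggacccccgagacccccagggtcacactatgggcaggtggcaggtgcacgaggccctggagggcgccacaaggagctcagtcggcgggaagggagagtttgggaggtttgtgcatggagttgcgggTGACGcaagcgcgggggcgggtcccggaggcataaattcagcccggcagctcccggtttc
Junb: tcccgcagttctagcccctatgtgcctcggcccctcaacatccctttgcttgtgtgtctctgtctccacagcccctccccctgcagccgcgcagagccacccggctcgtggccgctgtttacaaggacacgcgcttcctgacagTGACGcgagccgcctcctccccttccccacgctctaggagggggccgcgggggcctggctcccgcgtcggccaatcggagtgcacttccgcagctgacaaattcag
Atf3: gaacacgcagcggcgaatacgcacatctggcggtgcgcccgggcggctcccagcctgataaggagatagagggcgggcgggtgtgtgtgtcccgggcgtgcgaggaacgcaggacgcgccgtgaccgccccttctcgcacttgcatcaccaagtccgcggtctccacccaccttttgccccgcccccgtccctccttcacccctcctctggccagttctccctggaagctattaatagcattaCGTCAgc
Dusp1: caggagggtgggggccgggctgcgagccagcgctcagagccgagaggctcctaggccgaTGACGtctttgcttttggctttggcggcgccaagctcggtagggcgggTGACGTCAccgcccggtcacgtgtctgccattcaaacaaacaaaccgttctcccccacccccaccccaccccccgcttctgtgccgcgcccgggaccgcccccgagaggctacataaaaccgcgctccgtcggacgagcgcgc
The full palindrome TGACGTCA, which contains TGACG on both strands, occurred in Dusp1 and in 1.55% of all promoters. TATAAA, a core promoter element, occurred in Fos and in 12.4% of all promoters, and GCGGGGGCG, the EGR site, in Fosb and Zfp36 and in 2.57%. A CArG box, the SRF site, occurred in Zfp36 and in 1.47%, and CCAAT in Jun and Junb and in 33.9%. TGACTCA, the AP-1 site, was found in 0 of the 8 and in 4.46%. All were searched on both strands. A match describes the letters and says nothing about binding.

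The genes lie on 7 chromosomes (GENCODE vM21 on mm10). Fos spans chr12:85473890-85477273, Egr1 chr18:34859823-34864984, and Junb, Jund and Ier2 all lie on chromosome 8. Annotated genes on the other strand overlap Jun (Junos), Junb (Prdx2), Jund (Gm11175), Zfp36 (Gm44710), Atf3 (Gm24748) and Dusp1 (Ergic1). Dusp1 is also overlapped on its own strand, by the processed pseudogene AC122252.4 and the sense intronic gene AC122252.1. The sources used here do not say how reads in such overlaps were assigned, so levels of these 6 genes carry that uncertainty.

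The 79009 cells comprise 38650 rods, 13556 amacrine cells, 11818 progenitors and 9239 neurogenic cells, besides 4530 bipolar cells, 842 cones and 221 Müller glia; horizontal cells (55) and starburst amacrine cells (98) were the rarest. A library entered a cell type with at least 20 cells of it, which gave 20 libraries for each of the first 4 types named, 12 for bipolar cells, 7 for cones and 4 for Müller glia. Libraries held 2376875 to 141540352 UMIs. One library stood apart: P2 MEIS2 replicate 2 had a median of 992 UMIs per cell, with 10.0% of its UMIs from Malat1 and 0.415% from mitochondrial genes. The replicate 1 libraries of the P5 groups had 7.18% to 10.0% mitochondrial UMIs, above the other P5 libraries. In 10 of 20 libraries the start of the cell barcodes differs from the library's title, and in 2 of these, P2 control 1 and P2 combination 2, it names another group. Any 2 libraries shared barcodes amounting to at most 0.876% of the smaller library. In progenitors all 10 genes of the progenitor marker list were detected at each age, and their summed level had a median of 2404 CPM at P2 and 1853 CPM at P5, against 110.2 and 45.8 CPM in rods. At P5 the list set progenitors less apart from other types: the median was 1712 CPM (755 to 1866) in neurogenic cells, 1446 CPM (865 to 1695) in Müller glia and 1190.1 CPM (462 to 1402) in bipolar cells, and the first 2 ranges overlapped that of progenitors, 1612 to 2610.4 CPM. The name progenitor is used below as the authors gave it.

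In progenitors every member was higher at P5 than at P2, in control libraries and again in MEIS libraries, which share none with the controls. Levels are given as CPM, the gene's UMIs after scaling all UMIs of that cell type in that library to 1000000, with the libraries in the order of their replicate numbers. Differences are log2 fold changes from edgeR's quasi-likelihood test over all genes with Benjamini-Hochberg adjustment. At an adjusted p under 0.05, the control libraries called 10 of 10 members higher, where 10.6% of the 14849 genes tested were called higher. The median change was 2.73 over the members and -0.04 over all genes tested.

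Fos, the AP-1 subunit most used as a marker of recent stimulation, measured 73.7, 161, 160.1 and 319 CPM in the 4 P2 control libraries and 3055, 1366, 1910.3 and 1499 CPM in the 4 P5 control libraries. The lowest P5 library lay above every P2 library, and the log2 change was 3.44 (SE 0.48, adjusted p = 0.000194). Fosb, its close paralog, measured 18.7, 41.4, 30.1 and 88.4 CPM at P2 and 683, 182, 416 and 377 CPM at P5, a log2 change of 3.20 (SE 0.57, adjusted p = 0.00128). Its groups did not overlap either, and P5 control 1 was the highest library for both genes.

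Of the Jun family, the partners of Fos in AP-1, Jun measured 247, 264, 166 and 272 CPM in P2 controls and 1269.9, 899, 856 and 672 CPM in P5 controls. Every P5 library was above every P2 library, with a log2 change of 1.99 (SE 0.24, adjusted p = 5.95e-05). Junb, a family member that can restrain Jun, measured 30.05, 76.5, 49.9 and 107 CPM at P2 and 672, 405, 299.8 and 404 CPM at P5, again without overlap, a log2 change of 2.76 (SE 0.40, adjusted p = 0.000235). Jund, the member that most resting cells express, measured 364, 448, 316 and 633 CPM at P2 and 915, 533, 855 and 641 CPM at P5. Its groups overlapped, because P2 control 4 was above P5 control 2, and its log2 change of 0.74 (SE 0.25, adjusted p = 0.048) was the smallest of the 10.

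Egr1, a zinc finger factor induced by MAPK signalling, measured 91.7, 139, 97.00 and 426 CPM in P2 controls and 1049.6, 697, 775 and 818 CPM in P5 controls. P2 control 4 stood well above the other P2 libraries and still below every P5 library, and the log2 change was 2.14 (SE 0.43, adjusted p = 0.00303). Atf3, a stress-induced factor of the ATF family, measured 7.92, 5.89, 6.42 and 49.7 CPM at P2 and 293, 32.5, 58.6 and 112 CPM at P5. P2 control 4 overlapped the P5 range, and the log2 change of 2.84 (SE 0.86, adjusted p = 0.0314) had the largest standard error of the 10. Ier2 measured 122, 187, 123 and 299 CPM at P2 and 969, 442, 579 and 402 CPM at P5, without overlap, a log2 change of 1.72 (SE 0.35, adjusted p = 0.00305).

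Both genes of negative feedback were higher as well. Dusp1 measured 18.8, 18.1, 21.2 and 20.02 CPM in P2 controls and 279, 62.1, 71.3 and 88.9 CPM in P5 controls. The P2 libraries were close together, P5 control 1 was far above the other P5 libraries, and the log2 change was 2.71 (SE 0.49, adjusted p = 0.00133). Zfp36 measured 6.14, 8.53, 9.83 and 20.3 CPM at P2 and 228, 67.8, 73.7 and 134 CPM at P5, with no overlap and the largest log2 change of the 10, 3.50 (SE 0.49, adjusted p = 0.000197).

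**Figure D1:**
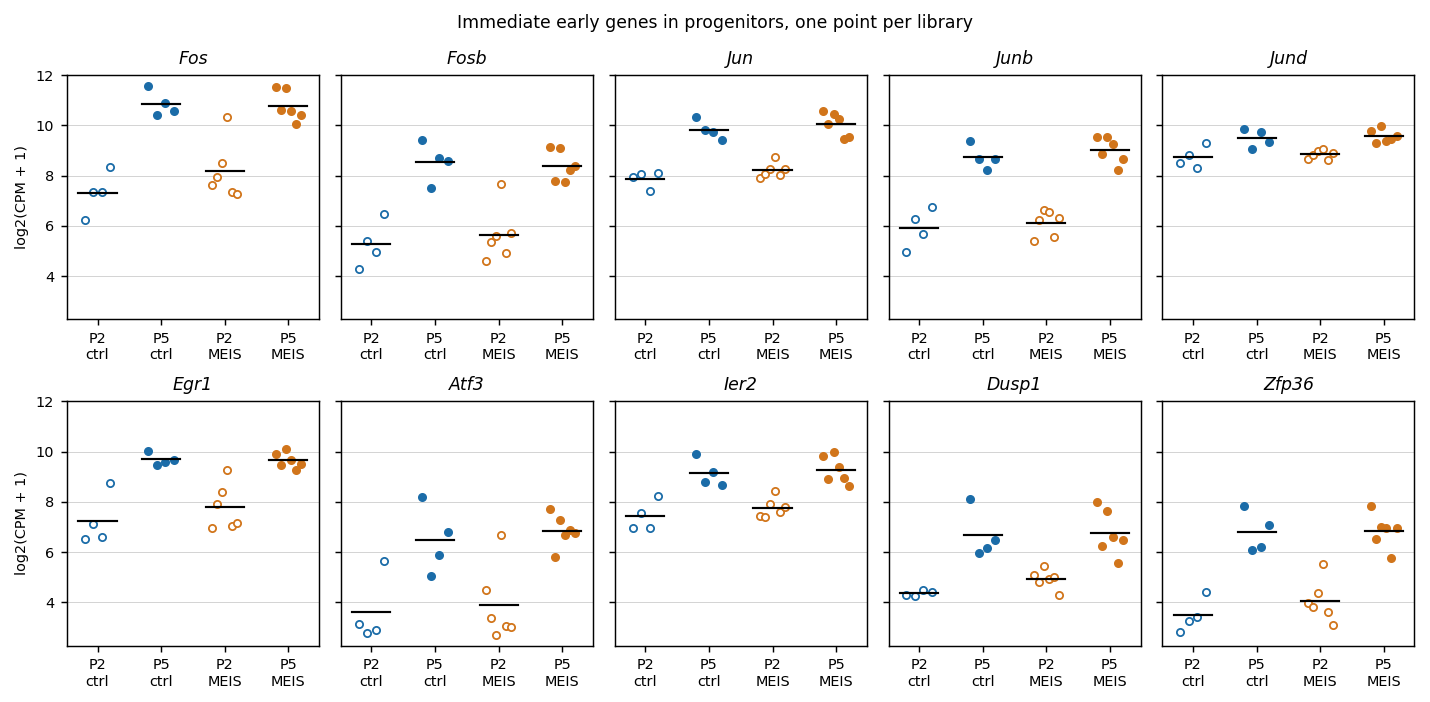
Levels of the 10 genes in progenitors as log2(CPM + 1), 1 point per library, with P2 as open and P5 as filled points, controls in blue, MEIS libraries in orange and a bar at each group's mean. The P5 points lie above all P2 points of the same arm for 8 genes in controls and for 7 in MEIS libraries; P2 MEIS2 replicate 2 is the highest P2 point of the MEIS arm for 8 genes, all but Junb and Dusp1.

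The 12 MEIS libraries gave the same direction for all members: 10 of 10 were called higher at P5 by edgeR's quasi-likelihood test, where 15.2% of all genes were. Over 6 libraries at each age, Fos had a lowest, median and highest level of 152, 221 and 1270.1 CPM at P2 and 1053, 1556 and 2941 CPM at P5, a log2 change of 2.74 (SE 0.38, adjusted p = 0.000102). Fosb had a lowest, median and highest level of 23.3, 43.9 and 201 CPM at P2 and 216, 312 and 569 CPM at P5, a log2 change of 2.91 (SE 0.46, adjusted p = 0.000294). The Fos ranges overlapped through P2 MEIS2 replicate 2, which had the highest P2 level, and the Fosb ranges did not overlap. Jun had a lowest, median and highest level of 236, 286 and 424 CPM at P2 and 701, 1131 and 1503 CPM at P5, a log2 change of 2.01 (SE 0.20, adjusted p = 4.74e-06). Junb had a lowest, median and highest level of 41.5, 76.5 and 97.9 CPM at P2 and 294, 530.4 and 744 CPM at P5, a log2 change of 3.03 (SE 0.33, adjusted p = 1.16e-05). Jun and Junb did not overlap between the ages, nor did Jund, whose log2 change of 0.91 (SE 0.20, adjusted p = 0.00339) was again the smallest.

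Egr1 had a lowest, median and highest level of 125, 189 and 617 CPM at P2 and 609, 768 and 1095 CPM at P5, a log2 change of 2.00 (SE 0.35, adjusted p = 0.000604). Atf3 had a lowest, median and highest level of 5.59, 8.33 and 101 CPM at P2 and 54.9, 113 and 211 CPM at P5, a log2 change of 3.04 (SE 0.73, adjusted p = 0.0056). Both overlapped between the ages, each with P2 MEIS2 replicate 2 as its highest P2 library. Ier2 had a lowest, median and highest level of 166, 204 and 341 CPM at P2 and 399, 582 and 999.9 CPM at P5, a log2 change of 1.73 (SE 0.28, adjusted p = 0.000357). Dusp1 had a lowest, median and highest level of 18.6, 30.03 and 42.7 CPM at P2 and 46.1, 92.3 and 256 CPM at P5, a log2 change of 2.10 (SE 0.39, adjusted p = 0.000997). Zfp36 had a lowest, median and highest level of 7.47, 13.9 and 44.6 CPM at P2 and 53.7, 124 and 226 CPM at P5, a log2 change of 3.12 (SE 0.40, adjusted p = 5.27e-05). These 3 did not overlap.

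Counted over single libraries, 8 members in controls had all P5 libraries above all P2 libraries, where 11% of genes did. In MEIS libraries 7 did, where 4.69% of genes did. In controls 8 of the 10 calls held without any 1 library. Without P2 control 1, 2 or 3 or P5 control 1, 3 or 4, Jund had log2 changes of 0.56 to 0.82 with adjusted p of 0.0575 to 0.17 in edgeR. Without P2 control 1, 2 or 3 or P5 control 1 or 4, Atf3 had 1.85 to 2.92 with adjusted p of 0.0503 to 0.149. Without P2 control 1 and P2 combination 2, whose barcodes name another group, 8 were called in controls and 10 in MEIS libraries. These 2 counts are given without the share of all genes called in that fit. In MEIS libraries all 10 calls held without any 1 library. Progenitors with a UMI of the proliferation genes Mki67 or Top2a were also tested alone, a choice made after the values were seen. In these cells 9 of 10 members were called higher in controls, where 5.14% of genes were. In MEIS libraries 10 of 10 were, where 8.2% of genes were. A lower minimum of cells per library was used for this fit than for the main tests. Such cells made up 12.1% of 140 progenitors in P5 control 4. They made up 7.32% of 123 in P5 MEIS1 replicate 1 and 17.5% of 63 in P5 MEIS2 replicate 1. These calls therefore rest in part on libraries with few such cells.

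Other properties of the progenitors moved between the ages with these genes, and their part in the result was not tested. The summed level of 7 Müller glia markers had a median of 2016 CPM (range 1111 to 3243) at P2 and 10663 CPM (7932 to 16585) at P5, all 7 were above 0 at both ages, and Apoe alone went from a median of 927 to 7582 CPM. The cells that the authors call Müller glia had 10504 CPM (10329.8 to 12304) of these markers at P5, in 3 libraries, which lies inside the range of P5 progenitors, so by this list the P5 progenitors carried as much as the Müller glia. Summed over the 10 members, the P5 Müller glia had a median of 6658 CPM (3604 to 10718), and the P5 progenitors 5626 CPM (4363 to 9415). The 8 neurogenic markers summed to a median of 1260.3 CPM at P2 and 226 CPM at P5. Progenitors with a Mki67 or Top2a UMI made up 9.07% to 54.6% per library at P2 and 7.32% to 32.4% at P5, and the median UMIs per progenitor was 1067 to 21034 in the P2 libraries and 10926 to 26381 in the P5 libraries. Malat1, a nuclear RNA, took 1.52% to 3.22% of the progenitor UMIs in 9 P2 libraries, 9.89% in P2 MEIS2 replicate 2, and 3.14% to 4.17% at P5, and mitochondrial UMIs made up 0.447% to 4.48% and 3.33% to 7.24%. The P2 libraries with the most Malat1, P2 MEIS2 replicate 2 and P2 control 4 (3.22%), also had the highest summed level of the members at P2, 3649 and 2234 CPM. They also had the lowest P2 shares of progenitors with a Mki67 or Top2a UMI, 9.07% and 11.3%. The next highest summed level at P2, 1963 CPM in P2 MEIS2 replicate 1, came with the lowest Malat1 share, 1.52%. Of the markers of cells outside the retinal lineage, the 8 microglia markers summed to medians of 12.96 and 25.96 CPM with Tmem119 at 0 at P5, the 4 pericyte markers to 3.36 and 10.9 CPM, and red cell markers were at 0 at P5. Endothelial markers summed to medians of 397 and 734 CPM, of which Kdr alone had 393 and 652 CPM; Flt1 went from 1.79 CPM (0.773 to 3.09) to 75.4 CPM (42.3 to 85.7), and Cdh5, which defines endothelial cells, had a median of 0 at both ages. Astrocyte markers summed to medians of 5.97 and 23.8 CPM, and to 271 CPM (52.2 to 573) in P5 Müller glia.

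Neurogenic cells, the step between progenitors and neurons, had most members higher at P5 as well. In controls 8 of 10 members were called higher at P5 by edgeR's quasi-likelihood test, where 6.67% of genes were, and in MEIS libraries 8 of 10, where 9.14% were. All P5 control libraries were above all P2 control libraries for 8 members, where 10% of genes did the same, and in MEIS libraries for 3, Jun, Junb and Dusp1, where 2.95% did. Fos measured 31.2, 21.1, 47.9 and 62.8 CPM in P2 controls and 1203, 426, 659 and 508 CPM in P5 controls, with no overlap and a log2 change of 3.99 (SE 0.49, adjusted p = 3.91e-05). Egr1 measured 24.5, 34.97, 47.5 and 148 CPM at P2 and 712, 400.5, 351 and 353 CPM at P5, also without overlap, with 2.72 (SE 0.51, adjusted p = 0.00189). Jund was called in neither arm (log2 change 0.23 with adjusted p = 0.649 in controls, 0.28 with 0.39 in MEIS libraries). The feedback genes were near the threshold. Dusp1 was called in controls (1.42, adjusted p = 0.0276) and not in MEIS libraries (0.83, 0.105), and Zfp36 in MEIS libraries (1.12, 0.0327) and not in controls (1.28, 0.0629). Without P5 control 1, Dusp1 in controls was 0.73 with adjusted p = 0.146, and it also missed the threshold without P2 control 2, 3 or 4 (adjusted p of 0.0631 to 0.0786). Zfp36 in MEIS libraries missed it without any of 7 libraries (adjusted p of 0.0609 to 0.132), and in controls it was called without P2 control 4 (1.56, adjusted p = 0.0477). Marker levels moved in these cells too, and their part in the result was not tested: from P2 to P5 the Müller glia markers went from a median of 457 CPM (408 to 624) to 2986 CPM (1473 to 5200.1), with all 7 above 0 at both ages, the progenitor markers from 474 CPM (292 to 745) to 1712 CPM (755 to 1866), and the neurogenic markers from 3709.6 CPM (2631 to 6207) to 2196 CPM (1231 to 3629).

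In rods most members were not called. In controls edgeR's quasi-likelihood test called 0 of 10 members between P2 and P5, where 13.2% of genes were called in either direction; 2 members had an unadjusted p under 0.05 (27.6% of genes), and DESeq2 called 1, Atf3, and 10.8% of all genes. Fos measured 175, 43.2, 132 and 71.7 CPM in P2 controls and 209, 62.8, 260.2 and 193 CPM in P5 controls, with overlapping groups and a log2 change of 0.68 (SE 0.51, adjusted p = 0.419). In the 6 MEIS libraries of each age, the lowest, median and highest Fos levels were 41.1, 255 and 429 CPM at P2 and 81.8, 128 and 259 CPM at P5, a log2 change of -0.81 (SE 0.42, adjusted p = 0.183). Jun measured 496, 348, 203 and 144 CPM in P2 controls and 502, 843, 369 and 276 CPM in P5 controls, again overlapping.

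In rods of MEIS libraries edgeR called 1 of 10 members lower and 1 higher, where 10.5% and 11.6% of genes were, so that the counts were no larger than over all genes. Dusp1, the MAPK phosphatase, was lower at P5: its lowest, median and highest levels were 22.9, 33.01 and 62.2 CPM at P2 and 5.86, 12.8 and 15.3 CPM at P5, with no overlap. Its log2 change was -1.60 (SE 0.35, adjusted p = 0.00335) in edgeR, and -0.79 with adjusted p = 0.227 in controls. Atf3 was higher at P5, with levels of 1.24, 2.29 and 13.8 CPM at P2 and 6.41, 22.03 and 25.9 CPM at P5, a log2 change of 2.03 (SE 0.54, adjusted p = 0.0116) in edgeR. That call was lost without P2 MEIS2 replicate 1 (adjusted p = 0.065). Atf3 in control rods measured 16.3, 3.600, 3.84 and 1.34 CPM at P2 and 27.2, 26.7, 12.3 and 13.6 CPM at P5, with adjusted p = 0.0924; P2 control 1 overlapped the P5 range, and without it the log2 change was 2.69 (adjusted p = 0.00442). P2 control 1 is 1 of the libraries whose barcodes name another group. Without 1 MEIS library, Ier2 (-0.63, adjusted p = 0.0323, without P5 combination 1) and Junb (0.68, 0.0233, without P2 MEIS2 replicate 1) also passed.

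In amacrine cells edgeR's quasi-likelihood test called 0 of 10 members in controls, where 0.397% of genes were called, and 0 of 10 in MEIS libraries, where 2.98% were. At an unadjusted p under 0.05 there were 1 and 2 members, where 8.9% and 16.7% of genes were, and DESeq2 called 0 in each, and 0.8% and 3.28% of genes. Fos measured 60.7, 76.7, 81.4 and 95.9 CPM in P2 controls and 222, 80.8, 473 and 148 CPM in P5 controls, a log2 change of 1.48 (SE 0.46, adjusted p = 0.254), with P5 control 3 far above the rest. In cones 0 of the 8 members tested in controls were called by edgeR, where 0.0605% of genes were; 1 had an unadjusted p under 0.05 (9.22% of genes), and DESeq2 called 0 and 0.0301% of genes.

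**Figure D2:**
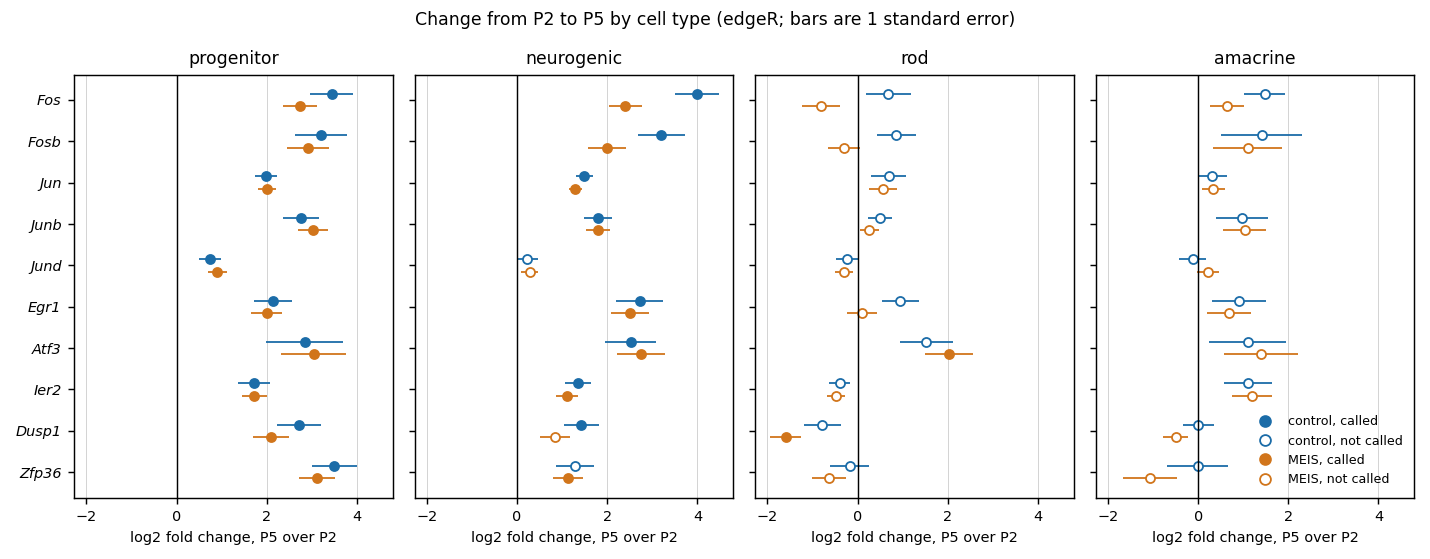
Log2 fold change from P2 to P5 with 1 standard error for each gene in 4 cell types, controls in blue and MEIS libraries in orange, filled where the adjusted p was under 0.05. All 20 points in progenitors are filled and right of 0, as are 8 of each arm in neurogenic cells, while in rods of MEIS libraries Atf3 is filled right of 0 and Dusp1 left of 0, and 0 points are filled in amacrine cells.

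Whether the change differed between types was tested directly, as the P5 minus P2 change of a type less that of progenitors, with the library as a block in edgeR. This contrast was added after the values had been seen. In rods the change was lower than in progenitors for 9 of 10 members in controls, where 13.8% of genes were lower, and for 10 of 10 in MEIS libraries, where 15.7% were. Zfp36 differed by -3.75 (SE 0.45, adjusted p = 1.9e-06) in controls, Dusp1 by -3.35 (SE 0.43, adjusted p = 4.57e-06) and Fos by -3.01 (SE 0.55, adjusted p = 0.000237), each by edgeR's quasi-likelihood test. In controls the differences of Jun, Jund and Egr1 were lost without P2 control 1 (adjusted p = 0.0753, 0.0564 and 0.112). Jun was also lost without P2 control 2 or 3 or P5 control 4 (adjusted p of 0.0526 to 0.0731), and Egr1 without P5 control 2 (0.0805). Atf3 passed without P2 control 4 (-2.56, adjusted p = 0.00356). In MEIS libraries all 10 held without any 1 library.

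In amacrine cells the change was lower than in progenitors for 8 members in controls, where 4.88% of genes were lower, and for 8 in MEIS libraries, where 11.5% were; Atf3 and Ier2 were the exceptions in both. In controls Jun, Dusp1 and Zfp36 held without any 1 library. Fos, Fosb, Junb, Jund and Egr1 were each lost without at least 1 library, among them every control except P5 control 3, with adjusted p of 0.0508 to 0.212 in edgeR, so that 4 to 8 were called; Atf3 passed without P2 control 4 (adjusted p = 0.0197). In MEIS libraries Jund and Egr1 were lost without P5 MEIS1 replicate 1 or P5 MEIS2 replicate 1 (adjusted p of 0.0510 to 0.0820). In neurogenic cells the change was lower for Zfp36 alone in controls (-2.15 (SE 0.47, adjusted p = 0.00631); 1.27% of genes), with Dusp1 added without P5 control 3 (adjusted p = 0.0198). In MEIS libraries it was lower for Jun, Junb, Jund, Dusp1 and Zfp36 (4.81% of genes). Of these Jun (adjusted p = 0.0456) and Jund (0.0492) were lost without most single MEIS libraries (up to 0.107), and Junb without P2 MEIS1 replicate 2 (0.0555); Fosb passed without P5 combination 1 (0.0485). In control cones Fos, Jun, Junb and Jund were lower (1.84% of genes), and 0 to 7 members were called without any 1 library.

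The order of the types differed between the ages. For Fos at P2 the median over 10 libraries was 211 CPM (41.1 to 429) in rods, 179 CPM (73.7 to 1270.1) in progenitors, 85.9 CPM (60.2 to 337) in amacrine cells and 64.98 CPM (21.1 to 369) in neurogenic cells. All of these ranges overlapped. At P5 it was 1556 CPM (1053 to 3055) in progenitors, 503 CPM (271 to 1203) in neurogenic cells, 201 CPM (80.8 to 473) in amacrine cells, 155 CPM (62.8 to 260.2) in rods and 145 CPM (30.8 to 317) in bipolar cells. Among these 5 types the progenitor range overlapped only that of neurogenic cells, and the last 3 overlapped one another. In P5 Müller glia, with 3 libraries, it was 2029.9 CPM (741 to 3588), which overlapped the progenitors, and the Müller median was above that of progenitors for 8 members, all but Fosb and Dusp1. Progenitors had the highest median of the 5 types at P5 for all 10 members, and of 4 types at P2 for Egr1, Atf3, Ier2 and Zfp36. The lowest type at P5 was bipolar cells for Fos, Junb, Ier2 and Zfp36, amacrine cells for Fosb, Jun, Jund and Atf3, and rods for Egr1 and Dusp1.

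**Figure D3:**
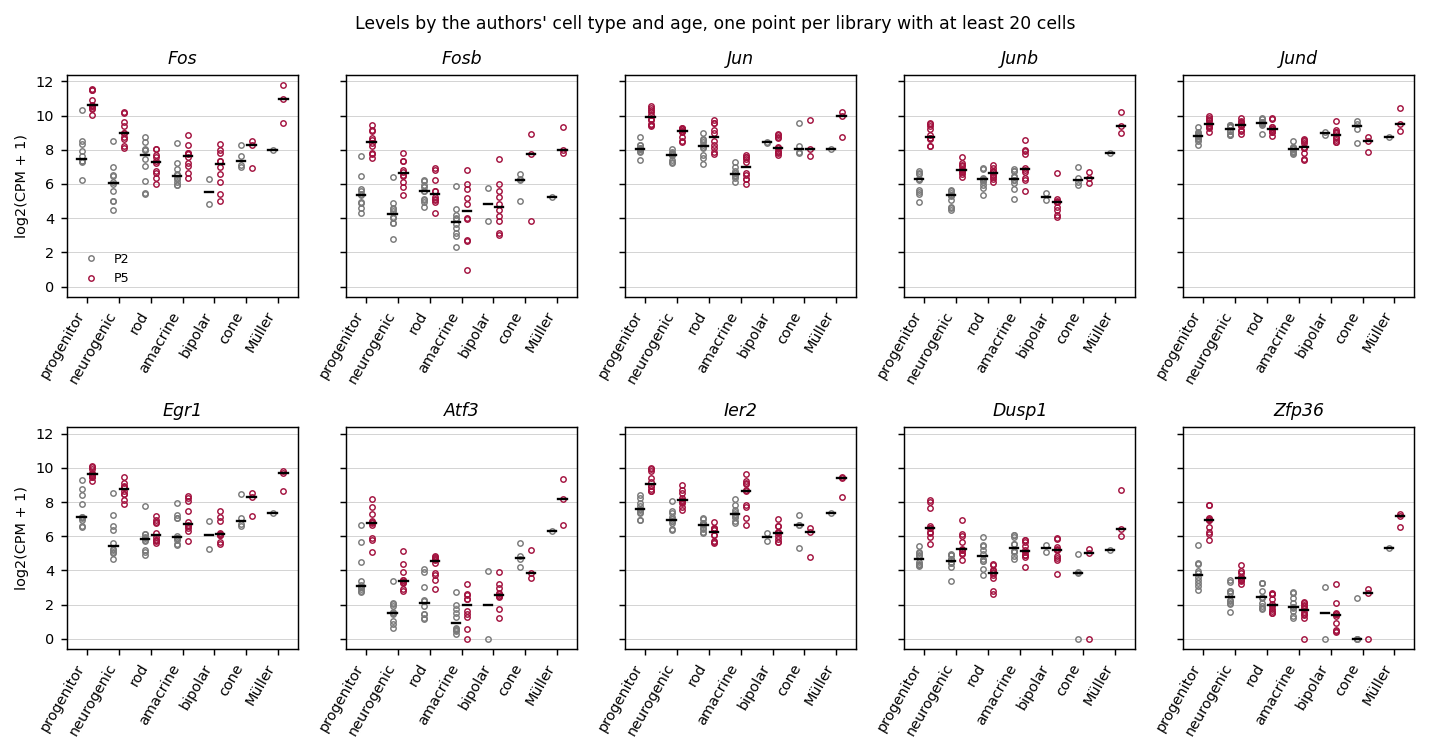
Levels as log2(CPM + 1) by the authors' cell type and age, 1 point per library with at least 20 cells, P2 in grey and P5 in red, with a bar at the median. Progenitors have the highest P5 median among the 5 types with 10 libraries at P5 for every gene, and Müller glia rest on 1 library at P2 and 3 at P5.

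Tests against progenitors in the same libraries put numbers on this order. The authors named the types from the same counts, so these tests describe the types, and their p-values are not independent of the naming. At P5 edgeR's quasi-likelihood test called 10 of 10 members lower in control rods, where 36.1% of genes were lower, 10 in bipolar cells (27.9%), 9 in amacrine cells (29.5%) and 9 in neurogenic cells (19.8%). Fos in P5 control rods less progenitors had a log2 difference of -3.89 (SE 0.42, adjusted p = 4.96e-07), and Zfp36 one of -5.40 (SE 0.37, adjusted p = 2.14e-09). The exceptions were Ier2 in amacrine cells (-0.84, adjusted p = 0.0783) and Jund in neurogenic cells (-0.23, 0.305). In MEIS libraries at P5 the counts were 10 in rods (36% of genes), 10 in bipolar cells (32.8%), 10 in amacrine cells (33.1%) and 9 in neurogenic cells (23.7%).

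At P2 rods were lower than progenitors for 4 members only, Egr1, Atf3, Ier2 and Zfp36, in controls (33.3% of genes) and in MEIS libraries (39.9%), and higher for Jund in both (30.9% and 36.3% of genes were higher). Jund in P2 control rods exceeded progenitors by a log2 difference of 0.66 (SE 0.21, adjusted p = 0.00849) in edgeR, whereas at P5 the difference was -0.46 (SE 0.17, adjusted p = 0.0217). Fos, Fosb, Jun, Junb and Dusp1 had differences between -0.82 (Fos, adjusted p = 0.0583) and 0.08 (Dusp1, 0.789) that did not pass. Dusp1 was higher in P2 amacrine cells than in progenitors, by 0.69 (SE 0.25, adjusted p = 0.0223) in controls (29.2% of genes higher), while 7 other members were lower there (30.1%). In neurogenic cells at P2, 7 members were lower in controls (22.1%), and in cones 2 were, Ier2 and Zfp36 (29.3%).

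Over both ages together, the control libraries, 8 for most types but 5 with enough bipolar cells (1 of them P2) and 6 with enough cones, called lower than progenitors 9 members in neurogenic cells (22.6% of genes), 9 in rods (33.9%), 8 in amacrine cells (31.7%), 9 in bipolar cells (28.6%) and 6 in cones (31.1%), and 0 higher. The MEIS libraries, 12 for most types and 7 for bipolar cells, called 9, 9, 10 and 10 lower in the first 4 of these types (28.2%, 38%, 35.9% and 33.9% of genes). Without 1 library, 3 to 8 were called in cones and 7 to 10 in every other type and arm. The name bipolar goes against the markers in 3 libraries: the 7 bipolar markers summed to 70.8 CPM in P2 control 1, 139.9 CPM in P2 combination 1 and 138 CPM in P5 combination 1, against 1866 to 3797 CPM in the other 9. Without any 1 of these libraries 10 members were called lower in bipolar cells of its arm.

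To compare cells at equal depth, each cell was thinned to 1000 UMIs, which left out 242 of 8471 progenitors at P2, 9 of 3347 at P5, and 610 of 19029 and 199 of 19621 rods. Most of those left out at P2 came from P2 MEIS2 replicate 2, where 232 of 419 progenitors were kept. A median of 14.6% of P2 progenitors and 67.5% of P5 progenitors per library then held a Fos UMI, against 59.2% and 97.6% before thinning. In rods the thinned shares were 14.2% and 10.6%. Egr1 went from 11.9% to 47.6% of progenitors, Jun from 22.1% to 55.4%, and Fosb from 4.08% to 30.2%. The scarcest members were Zfp36 (1.505% and 7.32%), Dusp1 (2.04% and 7.69%) and Atf3 (0.601% and 6.93%). No cell type here is known to lack these genes, so part of any share may be free RNA; the rod shares of Zfp36, 0.417% and 0.412%, were the lowest of the rod shares at P5.

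Cells with UMIs of several members were counted as well. At 1000 UMIs the mean number of the 10 genes detected per progenitor had a median of 1.205 (0.832 to 2.33) at P2 and 3.27 (2.83 to 4.79) at P5. A share of cells with several members follows from this number, and it was not set against what independent detection would give. At that depth, the percent of progenitors with UMIs of at least 3 of the 10 genes had a median of 12.1% (4.41% to 43.5%) at P2 and 66.5% (56.1% to 89.3%) at P5, so the libraries of the ages did not overlap. In neurogenic cells it was 4.68% (2.22% to 20.6%) and 27.2% (17.3% to 48.4%), and in rods 9.73% (5.01% to 17.8%) and 9.46% (4.799% to 16.9%). Progenitors with UMIs of 0 members went from a median of 30.5% (8.19% to 42.6%) to 3.89% (1.03% to 7.86%). The highest P2 library for progenitors was P2 MEIS2 replicate 2, which kept the smallest share of its cells, and the next was P2 control 4 with 25.02%.

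**Figure D4:**
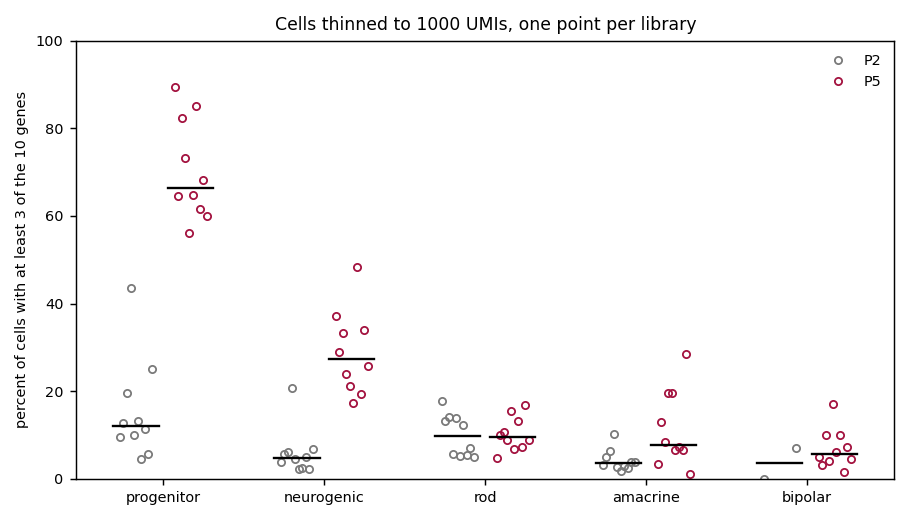
Percent of cells with UMIs of at least 3 of the 10 genes after thinning each cell to 1000 UMIs, 1 point per library, P2 in grey and P5 in red, with a bar at the median. Every P5 point of progenitors (56.1% to 89.3%) is above every P2 point (4.41% to 43.5%), while the rod medians are 9.73% and 9.46%.

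The constructs were compared with control at each age. Taking the 3 MEIS groups together, edgeR's quasi-likelihood test called 0 of 10 members at P2 and 0 at P5 in progenitors, neurogenic cells, rods and amacrine cells, and 0 at P5 in bipolar cells; DESeq2 also called 0, where its largest shares of all genes were 0.645% in P2 neurogenic cells and 0.602% in P2 rods. By edgeR the shares of all genes called in progenitors were 0.0135% at P2 and 0.0202% at P5, 0.00728% in P5 neurogenic cells, 0.00678% in P5 bipolar cells and 0% in the rest. At an unadjusted p under 0.05 there was 1 member, Fos, in P2 neurogenic cells (1.12, adjusted p = 0.356; 10.7% of genes) and in P2 rods (1.09, 0.425; 10.9% of genes), and none elsewhere. Fos in progenitors measured 73.7, 161, 160.1 and 319 CPM in P2 controls, and in P2 MEIS1 libraries 195 and 247 CPM, in MEIS2 libraries 359 and 1270.1 CPM and in combination libraries 163 and 152 CPM. Both MEIS2 libraries were above all controls, and the higher was replicate 2, the library that stood apart. The change of the MEIS effect from P2 to P5 was called for 0 members in each of the 4 types by edgeR (1 in neurogenic cells and 1 in rods at an unadjusted p under 0.05, with 2.44% and 2.25% of genes) and by DESeq2, which called at most 0.0043% of genes.

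Each construct was tested on its own in progenitors and rods, with the construct read from the title. The treatment tag instead names MEIS1 for all 4 single-construct libraries of P2 and MEIS2 for all 4 of P5, so that the tags go against the titles for the P2 MEIS2 and the P5 MEIS1 libraries, and values below for those 2 groups rest on the titles. edgeR's quasi-likelihood test called 0 members for MEIS1, MEIS2 or the combination at either age, where 0.00673% to 0.0404% of genes were called in progenitors and 0% to 0.00676% in rods. The largest difference was Fos in P2 MEIS2 progenitors, with a log2 change of 1.83 (SE 0.52, adjusted p = 0.165); DESeq2 called it (1.89, adjusted p = 0.0174) and 2.33% of all genes. Without P2 MEIS2 replicate 1, leaving the library that stood apart as the only MEIS2 library, edgeR gave 2.41 (adjusted p = 0.0067), assuming that it varies like the other groups. Likewise Egr1 in P2 MEIS2 rods was 1.42 (SE 0.50, adjusted p = 0.228) with both libraries and 2.10 (adjusted p = 0.0257) with replicate 2 alone. At P5 the construct differences in progenitors lay between -0.96 (Dusp1, combination) and 0.49 (Jun, MEIS1). At an unadjusted p under 0.05 there was 1 member for MEIS2 at P2 in progenitors (15.9% of genes), and in rods 1 for MEIS1 at P2 (1.48%), 2 for MEIS2 at P2 (14%) and 1 for the combination at P5 (3.79%). With the replicate number as a block, edgeR called Atf3 lower in P5 combination rods (-1.70, adjusted p = 0.0262), where 0.622% of genes were called, against -1.25 (adjusted p = 1) without it.

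The spread of each gene over 20 libraries and 4 types (progenitors, neurogenic cells, rods and amacrine cells) was split into sums of squares of log2(CPM + 1). Over the members the median share was 43.6% for cell type, 19.9% for age, 13.1% for the type by age term, 2.12% for treatment and 6.94% for libraries within a group. Over the 12161 genes tested in all 4 types the medians were 39.4%, 2.803%, 3.95%, 4.0% and 17.1%. The age by treatment term had medians of 1.698% over the members and 3.52% over all these genes. The rest, which includes differences between libraries that vary by type, had 10.3% and 14.8%. The share for libraries within a group therefore covers only differences common to the 4 types, and understates the spread between libraries. Age took 41.2% for Junb, 26.8% for Fos and 24.5% for Egr1, and 2.296% for Jund, whose spread was mostly by type (69.8%). Dusp1 had the largest type by age share, 36.1%, and the largest share of libraries within a group, 17.9%, followed by Fosb with 15.3%. Zfp36 had the smallest, 2.46%. Treatment alone took at most 5.93%, for Egr1. Age by treatment took at most 5.43%, for Fos, which had another 5.39% for treatment. Without P2 MEIS2 replicate 2 these Fos shares were 1.35% and 3.56%. The treatment shares rested on the library that stood apart: without P2 MEIS2 replicate 2 the median was 3.39% over the members and 3.08% over all genes, which turns their order round, Egr1 had 3.404%, and the highest member was Jun with 5.402%. With that library out the groups are unequal and the parts of the split are no longer independent.

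**Figure D5:**
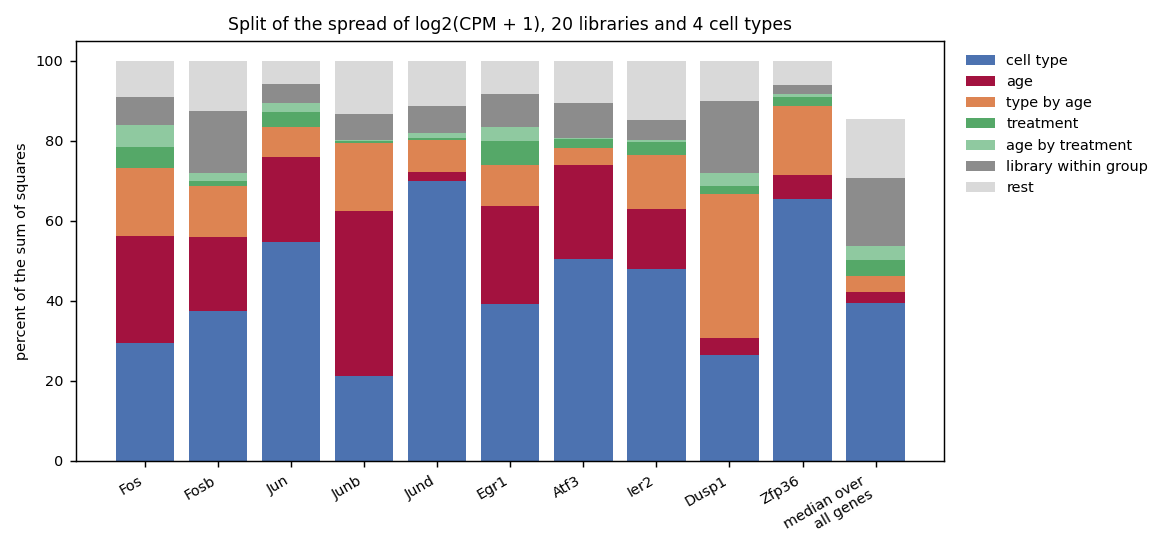
Percent of the sum of squares of log2(CPM + 1) by source for each gene, over 20 libraries and 4 cell types, with the median over all genes as the last bar (medians need not sum to 100). Cell type, age and their combination make up most of each member's bar, and libraries within a group take 2.46% (Zfp36) to 17.9% (Dusp1).

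Between libraries of the same group the standard deviation of log2(CPM + 1) in progenitors ran from 0.30 for Jun and 0.33 for Jund to 0.86 for Fosb and 1.34 for Atf3. The difference between the ages was larger than this for every member in progenitors; for Fos it was 2.99 against a standard deviation of 0.68, and for Atf3 2.93 against 1.34. In rods it was smaller than the standard deviation for Fos (-0.11 against 0.87), Fosb, Jun, Jund, Egr1 and Zfp36. The range of the 4 type means widened from P2 to P5 for 9 of 10 genes, for Zfp36 from 1.87 to 5.28 and for Fos from 1.75 to 3.64, and for Jund it went from 1.51 to 1.43.

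In progenitors, libraries that were high for 1 member tended to be high for the rest. With each group's mean taken away, the correlation over 20 libraries of a member with the mean of the other 9 in progenitors was between 0.51 (Dusp1) and 0.91 (Fosb), a description in which the values share library and depth. In rods it was between 0.05 (Jun) and 0.78 (Fos). In a group of 2 libraries 1 deviation mirrors the other, so the MEIS libraries add fewer independent values than their number. In progenitors of P2 control 4, P5 control 1, P5 MEIS1 replicate 1 and P5 MEIS2 replicate 1 all 10 members lay above their group's mean, by an average of 0.91, 0.84, 0.51 and 0.30 on the log2 scale. The last 3 are replicate 1 libraries of P5 with high mitochondrial percentages, whose part in the result was not tested; in P5 combination 1, with 8.14%, 2 of 10 members were above. Without the 4 replicate 1 libraries of P5, 8 members were called higher in control progenitors by edgeR, while Jund (0.55, adjusted p = 0.245) and Atf3 (1.85, 0.201) were not. The share of all genes called in that fit is not given here.

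Whether the same libraries were high in several types was tested by correlation. Over the 10 libraries of an age, 20 correlations between progenitors and rods were computed (10 genes at 2 ages), and 0 had an adjusted p under 0.05 by a two-sided permutation test. For Fos at P5, Pearson's r was 0.04 (permutation p = 0.911, adjusted 0.995) and Spearman's rho 0.05 (p = 0.89, adjusted 0.974), and r was 0.04 without the 2 libraries farthest from the median. The strongest was Junb at P5, with r = -0.70 (permutation p = 0.0265, adjusted 0.256) and rho = -0.72 (p = 0.0223, adjusted 0.321), and r = -0.52 without those 2. Between progenitors and neurogenic cells, 4 of 10 genes at P2 and 7 of 10 at P5 had an adjusted permutation p under 0.05 for r, and 3 at P2 and 5 at P5 for rho. The share of all genes that would pass was not computed for either pair of types, so these counts cannot be read as particular to the members. Fos at P5 had r = 0.96 (permutation p = 2e-05, adjusted 0.0004), rho = 0.94 (p = 0.00029, adjusted 0.0035), and r = 0.91 without the 2 farthest, P5 control 1 and P5 MEIS1 replicate 1. Ier2 at P2 had r = 0.91 (permutation p = 0.00022, adjusted 0.0011), rho = 0.82 (p = 0.00594, adjusted 0.0198), and r = 0.87 without the 2 farthest. These libraries belong to 4 treatment groups at each age, 2 of them or 4 a group.

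Among the 8 genes outside the list whose libraries deviated most like the members, by the mean of the Pearson r in progenitors and in rods over 20 libraries, were Siah2 (0.74), Rhob (0.73), Klf6 (0.70), Nfkb1 (0.68), Pak1 (0.67), Btg2 (0.64) and Frat2 (0.64), out of 6437 genes ranked. In progenitors alone r was 0.87 for Rhob and 0.83 for Btg2. Rhob, Klf6 and Btg2 are also on a list of other early-response genes described next.

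That list holds 42 other immediate or delayed early genes, of which 40 were tested in progenitors. In controls 22 were called higher at P5 and 2 lower by edgeR's quasi-likelihood test, where 10.6% and 6.96% of all genes were, with a median change of 1.44 over the list against -0.04 over all genes; in MEIS libraries 27 were higher and 2 lower (15.2% and 14.7% of genes), with medians of 1.16 and -0.02. Of those called, 21 were higher in both and the same 2 were lower in both. The largest rises in controls were the orphan receptors Nr4a3 (3.94) and Nr4a1 (3.73), Csrnp1 (3.59), the growth arrest gene Gadd45b (3.21), the zinc finger factor Klf4 (2.81) and Bhlhe40 (2.77). In MEIS libraries they were Egr4 (5.63), a paralog of Egr1, Nr4a3 (3.79), Nr4a1 (3.76), Gadd45b (3.61), Csrnp1 (3.44) and Ier3 (2.91). Gadd45g (-1.67 in controls, -1.39 in MEIS libraries) and the antiproliferative gene Btg1 (-1.18, -0.92) fell, all values being log2 changes.

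In neurogenic cells 38 of the list were tested. Of these 12 were higher and 1 lower in controls (median 1.23), where 6.67% and 2.6% of all genes were, with the largest fitted changes in the matricellular genes Ctgf (5.62) and Cyr61 (5.22), which had few UMIs at P2, and 16 higher and 2 lower in MEIS libraries (median 0.76; 9.14% and 4.66% of genes). In rods 36 were tested. In controls 4 were higher (7.24% of genes), led by Nr4a1 (1.505) and Gadd45b (1.40), and 3 were lower (5.94% of genes), Gadd45g (-1.88) and the phosphatases Dusp4 (-2.91) and Dusp5 (-1.51). In MEIS libraries 3 were higher and 7 lower (11.6% and 10.5% of genes), with list medians of -0.06 in control rods and -0.37 in MEIS rods. In amacrine cells edgeR called 0 of 33 in controls, where 0.397% of genes were called, and 1, lower, in MEIS libraries (1.08% of genes lower). Less the change in progenitors, 21 of 40 were lower and 1 higher in control rods (13.8% and 9.78% of genes), with a median difference of -1.42.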

How the data were processed

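Single cells of retinal explants were profiled with the 10x 3' v3.1 kit. Per the submitters' processing notes, reads went through Cell Ranger and Seurat 5 on mm10; the counting settings are not given in the sources used here. The authors deposited UMI counts without normalization, 1 row per gene and 1 column per cell, and a second deposited table gives each cell's library, cell type, UMI count and mitochondrial percent. Recomputed UMI sums and mitochondrial percents equalled the deposited ones in all 79009 cells (the percent within 0.01).

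Counts were summed per library and authors' type (at least 20 cells). The main test was edgeR 4.0.16 (R 4.3.3) quasi-likelihood with filterByExpr and TMM, 1 mean for each of 8 groups, two-sided, Benjamini-Hochberg over all genes of a contrast, threshold 0.05; types were compared with the library as a block. All 10 members passed the filter in every fit except the age contrast of cones, where 8 did. Alternatives were DESeq2 1.42.0, other filters, other cells and left-out libraries. Shares of genes called by DESeq2 are of all 23260 genes, including those with low counts. Shares by edgeR are of the genes that passed its filter, so the shares of these tools are not on the same scale. log2 values used a pseudocount of 1 CPM. Permutation tests drew 100000 resamples (scipy 1.17.1). Scripts were tested on simulated counts with known 2-fold and 4-fold changes. Between P2 and P5, edgeR called 34% and 93% of these in control progenitors and 20% and 90% in control rods. In MEIS libraries it called 48% and 96% in progenitors and 44% and 94% in rods. Comparisons of constructs with control, and changes with age in other types, were not simulated. A result of 0 members called therefore does not show that 2-fold changes were absent. Doublets were not removed. The members, gene lists and markers were chosen with earlier results of these data known. Named genes were all 10 members, the called genes of the lists with the largest changes (at most 6 each way), and the 8 most similar genes; results of 2 genes that the rule takes in are not reported here.

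The labels give replicate numbers. Same-numbered P2 and P5 controls deviated together in progenitors (correlations of 0.15 to 0.36 in 4 of 4 pairs) and in rods in 2 of 4 pairs (-0.01 to 0.33), while barcode starts contradict the numbers in 10 libraries. Controls and same-numbered MEIS libraries of 1 age, 2 pairs a comparison, had correlations of -0.23 to 0.62 in progenitors and -0.06 to 0.64 in rods, over 0.1 in 10 and 9 of 12 pairs. Over all groups of 1 age, same-numbered pairs were over 0.1 in 14 of 24 in progenitors and 13 of 24 in rods. Pairs with different numbers were in 14 of 48 and 18 of 48. P2 control 4 with P5 control 1 had 0.36 in progenitors. Groups follow the titles where treatment tags differ.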

Additional observations from a re-analysis of the deposited data

Results flagged for a closer look

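In the 2 control groups, Dixon's test at the 95% level looked for single libraries that stood apart from the rest of their group. It was run on CPM, without logarithms, over 80 gene, type and group combinations, and 11 were found. Chance would flag about 1 in 20 of independent, normally distributed values. The combinations share libraries, and their genes vary together, so the number found cannot be set against that rate. In P2 control 4, Atf3 in progenitors measured 49.7 CPM (the other 3 libraries 5.89 to 7.92), Egr1 in progenitors 426 CPM (91.7 to 139), Egr1 in amacrine cells 148 CPM (44.6 to 58.0) and Jund in amacrine cells 369.8 CPM (263 to 269). In P5 control 1, Dusp1 in progenitors measured 279 CPM (62.1 to 88.9), Atf3 in neurogenic cells 34.3 CPM (5.94 to 10.0), Egr1 in neurogenic cells 712 CPM (351 to 400.5) and Junb in neurogenic cells 192 CPM (96.3 to 111). In P5 control 3, amacrine cells had Egr1 at 328 CPM (78.1 to 98.3) and Junb at 374 CPM (74.7 to 123). In P2 control 1, Atf3 in rods measured 16.3 CPM (1.34 to 3.84). All 11 values lay above the rest of their group.

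The change from P2 to P5 was compared with that in progenitors by edgeR's test of the difference itself. In control libraries it was lower for 9 members in rods (13.8% of genes), 8 in amacrine cells (4.88%), 4 in cones (1.84%) and 1 in neurogenic cells (1.27%). In MEIS libraries it was lower for 10 members in rods (15.7% of genes), 8 in amacrine cells (11.5%) and 5 in neurogenic cells (4.81%).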

How the results depend on the processing

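Of 474 counts and summaries recomputed under other settings, 454 stayed alike. For counts this meant within 1.5 times, or 0 in both, and for variance shares within the standard deviation between members. Of 4571 values of single members 4454 kept their call or, for shares of cells, stayed within the spread. Sign was not compared for values that were uncalled in both settings. Another 59 lost the call, 30 gained it and 14 changed sign with a call in at least 1 setting. The last 14, shares of progenitors with a UMI at 2000 in place of 1000 UMIs, moved beyond the spread. The causes were not tested. The calls in progenitors were 8 to 10 of 10 in controls and 9 to 10 in MEIS libraries under every setting run. Counts of members called in this section are given without the share of all genes called in each fit. They therefore cannot be read as particular to the members. The same holds for the counts above with 1 library left out. Members called between P2 and P5 in control rods were 1 with the replicate block, 2 with groups read from the barcode start, 1 without P2 control 1 and P2 combination 2, and 1 with DESeq2; in MEIS rods 1 without P2 MEIS2 replicate 2 and the P5 replicate 1 libraries; in MEIS amacrine cells 1 in cells under 10% mitochondrial UMIs; in control cones 1 with no filter on low counts. Against control, 1 was called in P2 MEIS2 progenitors by DESeq2, 1 in P2 rods by barcode start and 1 (Atf3) in P5 combination rods with the replicate block. Against progenitors, cones had 3 without TMM, 2 at P2 only and 2 under 10% mitochondrial UMIs, rods 5 at P2 only in each arm, and neurogenic controls 3 with the library term left out (no block). The age effect less that of progenitors was called for 4 members in control amacrine cells without the P5 replicate 1 libraries and for 3 in MEIS neurogenic cells without TMM. Correlations passed for 4 genes at P2 and 7 at P5 against neurogenic cells in place of rods.

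At P2 alone the difference from progenitors changed sign for Junb (0.29) and Dusp1 (0.80) in MEIS amacrine cells, Junb (0.17) and Dusp1 (0.69) in control amacrine cells, Junb in cones (0.21), Jund in MEIS neurogenic cells (0.31), Fosb (0.29), Junb (0.28) and Dusp1 (0.21) in MEIS rods, and Jun (0.026), Junb (0.022) and Dusp1 (0.083) in control rods; at P5 alone Jund in rods was -0.58 (MEIS) and -0.46 (control).

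Leaving out 1 library at a time gave 8 to 10 calls in control progenitors, 10 in MEIS progenitors, 7 to 8 in neurogenic cells of either arm, 0 to 1 in control rods, 2 to 3 in MEIS rods, and 0 to 1 for MEIS2 at P2 in progenitors and in rods. For the age effect less that of progenitors it gave 6 to 10 in control rods, 4 to 8 and 6 to 8 in amacrine cells, 1 to 2 and 2 to 6 in neurogenic cells and 0 to 7 in cones, and 3 to 8 for cones against progenitors. With the replicate block, pairing P2 and P5 libraries by number, 10 of 10 members were called in progenitors of each arm, a count given without the share of all genes called under that block. Types with under 20 cells in a library, and libraries of low depth for Atf3, Dusp1 and Zfp36, limit the precision.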

Other observations

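Genes of related responses were tested in the same fits. Of 11 heat shock genes, which encode chaperones induced by protein stress, edgeR's quasi-likelihood test called 2 higher at P5 in control progenitors, Hspa1b (log2 change 4.80) and Dnajb1 (2.31), and 3 in MEIS progenitors, Hspb1 (3.50), Dnajb1 (1.42) and Hspe1 (0.89), with list medians of 0.53 and 0.89. Dnajb1 alone was called in both, and 10.6% and 15.2% of all genes were called higher. Of 13 kinases and factors that act before the early genes, 1 was higher in each arm, Mapk3, which encodes ERK1 (0.50 and 0.58), and 2 were lower in MEIS progenitors, among them Creb1 (-0.69), where 14.7% of genes were lower. In control rods Elk3 (-2.29) and Srf (-1.18), partners at the CArG box, were lower, 2 of 13 against 5.94% of genes.

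Müller glia reached 20 cells in 4 libraries, too few for a test. Fos measured 249 CPM in P2 control 1, and at P5 3588 CPM in control 3, 2029.9 CPM in MEIS1 replicate 2 and 741 CPM in combination 1. Starburst amacrine cells reached it in 2 libraries, with Fos at 558 CPM in P2 control 1 and 410.0 CPM in P5 control 1.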
